A study of Mus musculus with 9 samples.

Results

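BMP and GDF signalling was followed through 9 genes, Bmp2, Bmp4, Gdf6, Bmpr1a, Bmpr1b, Grem1, Id1, Id2 and Id3, chosen by name as the rows of the deposited gene table whose Ensembl identifier carries one of these mouse symbols. All 9 were found among the 38924 rows of the table, and all 9 passed the filter on low counts in every comparison. The 9 genes and the lists used below were chosen with earlier results of these data known. Counts over them, set beside the share of all genes, are therefore descriptions and not independent support. The libraries were made from cultured primary cardiac fibroblasts, taken from adult mice on a C57BL/6 background carrying a Cas9GFP allele (RosaCas9-EGFP), aged 8 to 10 weeks. The mice that supplied the cells of every group carried this allele, so Cas9 and the green fluorescent protein were present in controls too. The control group received scrambled guide RNAs, the Gata4 KD group 2 guide RNAs against Gata4, and the Tbx20 KD group 2 guide RNAs against Tbx20. Each group had 3 libraries, named here as replicates a, b and c. Cells were grown for 3 days, sorted as CD45-CD31-CD90+, replated, transfected after another 6 days, and lysed 72 h after transfection. The methods describe no selection of edited cells after transfection, and in bulk samples such as these fewer cells of a type cannot be told apart from less RNA per cell.

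Bone morphogenetic proteins (BMPs) and the related growth and differentiation factors (GDFs) are secreted ligands that bring together type I and type II receptor kinases on the cell surface. In the BMP branch the type I receptors phosphorylate SMAD1, SMAD5 and SMAD9, which enter the nucleus with SMAD4. There they switch on genes such as the Id family, whose products hold back basic helix-loop-helix transcription factors. Secreted antagonists of the Gremlin and Noggin type bind the ligands before they reach a receptor. In the heart the pathway is known for its part in the formation of valves and septa, where GATA4 and TBX20 are also needed, and cardiac fibroblasts both secrete ligands and respond to them.

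The guides define the knockdown groups and are shown for that reason, with the adjacent NGG motif that Cas9 requires (PAM) in capitals after the guide-matching bases in lower case. Each was matched to the coding exons of its target in the GENCODE annotation of GRCm38.
Gata4_sgRNA1: cagagagtgtgtcaattgtgGGG
Gata4_sgRNA3: gcaggactgggctgtcgaagGGG
Tbx20_sgRNA2: caaattccatgaactgggcaCGG
Tbx20_sgRNA3: gagctgctcgccagtaaaggGGG
Gata4_sgRNA1 lies at chr14:63204711-63204730 on the minus strand in exon 3 of Gata4, and Gata4_sgRNA3 lies at chr14:63240581-63240600 on the plus strand in exon 2. Tbx20_sgRNA2 lies at chr9:24770708-24770727 on the minus strand in exon 2 of Tbx20, and Tbx20_sgRNA3 lies at chr9:24765732-24765751 on the plus strand in exon 4. None of the 9 genes was a target.

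Promoter sequence, the 250 bases before and the 50 bases after an annotated start, was taken from RefSeq (GRCm38.p6) for the 4 pathway genes that were called higher in Gata4 KD than in Tbx20 KD (Bmpr1b, Crim1, Smad9 and Id4). Id2, a member that was not called, is shown with them as a classical BMP target whose window holds the motif. Capitals mark GGCGCC, the core of a BMP response element known from Id genes.
Bmpr1b, chr3:141982215-141982514, minus strand: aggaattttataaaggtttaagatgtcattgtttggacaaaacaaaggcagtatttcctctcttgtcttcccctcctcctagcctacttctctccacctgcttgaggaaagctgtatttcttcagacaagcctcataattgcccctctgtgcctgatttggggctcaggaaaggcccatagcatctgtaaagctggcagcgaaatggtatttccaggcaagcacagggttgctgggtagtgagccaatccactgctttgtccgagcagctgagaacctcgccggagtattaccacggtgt
Crim1, chr17:78199998-78200297, plus strand: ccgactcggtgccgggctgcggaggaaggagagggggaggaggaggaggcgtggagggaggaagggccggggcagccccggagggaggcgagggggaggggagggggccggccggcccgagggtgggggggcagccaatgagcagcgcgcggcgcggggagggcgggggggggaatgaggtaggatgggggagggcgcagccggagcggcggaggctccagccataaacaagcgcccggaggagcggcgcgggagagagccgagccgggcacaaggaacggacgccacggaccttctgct
Smad9, chr3:54755332-54755631, plus strand: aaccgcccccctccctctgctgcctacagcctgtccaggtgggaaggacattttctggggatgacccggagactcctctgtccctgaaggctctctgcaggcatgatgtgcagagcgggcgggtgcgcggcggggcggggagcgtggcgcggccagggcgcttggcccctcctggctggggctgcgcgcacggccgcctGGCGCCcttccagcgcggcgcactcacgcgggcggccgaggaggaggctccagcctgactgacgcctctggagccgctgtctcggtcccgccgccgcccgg
Id4, chr13:48260866-48261165, plus strand: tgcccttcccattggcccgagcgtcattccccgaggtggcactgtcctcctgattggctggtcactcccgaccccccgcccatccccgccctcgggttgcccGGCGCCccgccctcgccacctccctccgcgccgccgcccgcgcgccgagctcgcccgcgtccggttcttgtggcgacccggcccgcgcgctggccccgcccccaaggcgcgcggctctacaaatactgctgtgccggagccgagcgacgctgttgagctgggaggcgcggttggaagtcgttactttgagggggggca
Id2, chr12:25096043-25096342, minus strand: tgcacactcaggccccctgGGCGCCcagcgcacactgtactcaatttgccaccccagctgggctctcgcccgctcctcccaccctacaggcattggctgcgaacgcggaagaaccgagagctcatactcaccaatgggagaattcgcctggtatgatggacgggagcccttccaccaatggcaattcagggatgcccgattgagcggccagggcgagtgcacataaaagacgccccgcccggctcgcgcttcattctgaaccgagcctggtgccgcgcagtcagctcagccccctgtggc
The Bmpr1b window is one of 3 listed for the gene, all of which lie inside the gene as GENCODE draws it. The windows of Id2, Bmpr1a and Id3 also lie inside their genes as GENCODE draws them, and offsets refer to the RefSeq start. Promoters of 6 of the 9 members were matched (Bmp4, Bmpr1a, Bmpr1b, Grem1, Id2 and Id3). On either strand GGCGCC was found in those of Id2 (offset -231 from the start), Bmpr1a (-198) and Grem1 (-78), and also in those of Id4 (-148) and Smad9 (-51) but not in those of Bmpr1b or Crim1, while 11.9% of 32851 mouse promoters of the same length hold it. The letters GATAA, the core that GATA factors bind, were in none of the matched member promoters and in 25.4% of all promoters. AGGTGT, a part of the site that T-box factors bind, was in the promoter of Id3 (17 bases after the start) and in 13.7% of all promoters. These letter matches are descriptions of the windows and do not show binding.

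Totals ran from 31214828 to 41950397 counts per library, with a median of 36270725, and levels are given as CPM, the usual per-library scaling of a gene's count by the library total (here after TMM scaling, which adjusts totals for composition). Gata4 was 162 ± 6.83 CPM in control, 55.4 ± 9.48 in Gata4 KD and 189 ± 10.4 in Tbx20 KD (SD, n = 3). Tbx20 was 1000 ± 278 CPM in control, 698 ± 199 in Gata4 KD and 391 ± 61.8 in Tbx20 KD, and its difference between Tbx20 KD and control did not pass the threshold (log2 fold change -1.35, adjusted p = 0.748), while DESeq2 (adjusted p = 2.81e-08), edgeR's exact test (2.42e-06) and the fit without a filter (0.0318) called it. Gata4 KD replicate c had the most remaining Gata4 of its group (65.5 CPM against 54 and 46.7). For Gdf6, Bmpr1b, Grem1 and Id2 replicate c lay nearer to the control mean than replicates a and b did. For Bmp2, Bmp4, Bmpr1a, Id1 and Id3 it did not, and the part of the remaining Gata4 was not tested. Because of the former genes, values with and without replicate c are given. That choice was made from these same values, and leaving out the library nearest to the controls tends to widen a difference. A call made only without replicate c is therefore not separate support for a difference. All 8 fibroblast markers were detected, with summed levels of 10900 to 12800 CPM in control, 7670 to 11900 in Gata4 KD and 10500 to 13500 in Tbx20 KD. Of the 6 cardiomyocyte markers, 5 stayed under 1 CPM in every library and Nppa was at 0. The study describes the replicates as biological, and whether each came from a separate animal or from a separate culture is not stated in the labels, so p-values measure the spread between these libraries.

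Levels can be compared between genes only per length of transcript, here as CPM per kilobase of exon. In control cells Id3 stood first among the 9 genes with 106 ± 7.79 CPM per kilobase (SD, n = 3). Next came Gdf6 with 46.1 ± 13, Id1 with 34.4 ± 2.66, Id2 with 30.7 ± 4.02 and Bmpr1a with 22.6 ± 5.42 CPM per kilobase. The ranges over libraries of neighbours among these 4 overlapped. Lower and separate from them and from each other were Grem1 (8.68 ± 2.28), Bmp4 (4.56 ± 0.143), Bmpr1b (0.883 ± 0.0728) and Bmp2 (0.191 ± 0.086 CPM per kilobase). Among 20 BMP and GDF ligand genes in the table Gdf6 had the highest level per kilobase in control, and Id3 had the highest among 11 BMP target genes. Of the genes for the type I receptors BMPR1A and BMPR1B, Bmpr1a was thus the higher per kilobase in every group.

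**Figure D1:**
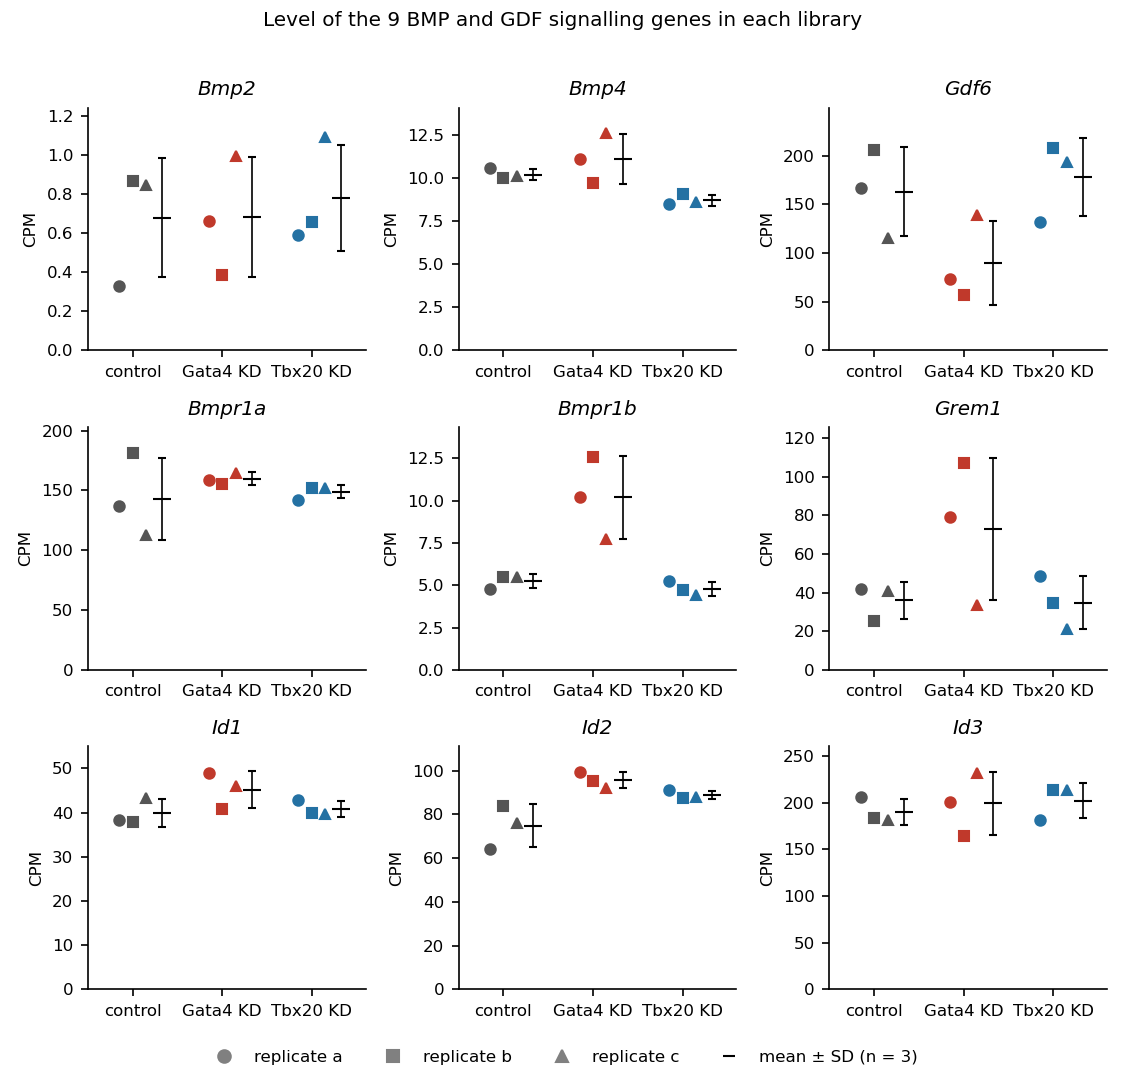
Level of each of the 9 genes in CPM (vertical axes, each from 0) in the 3 libraries of each group (circle, square and triangle for replicates a, b and c), with the mean and SD beside them. Bmpr1b in the 3 Gata4 KD libraries (7.75 to 12.6 CPM) lies above all 6 other libraries (4.41 to 5.51 CPM), whereas Gata4 KD replicate c (triangle) falls among the other groups for Gdf6 and Grem1.

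Gata4 KD against control asks which of these genes depend on GATA4 in cultured fibroblasts, and no member passed the threshold of an adjusted p under 0.05 (edgeR quasi-likelihood test, Benjamini-Hochberg adjustment over all genes tested). This stands beside 0.38% of 14468 genes that passed in either direction, 0.2% higher and 0.18% lower. At an unadjusted p under 0.05 there were 4 members (Gdf6, Bmpr1b, Grem1 and Id2), beside 8.54% of all genes tested. DESeq2 and edgeR's exact test each called 1 member, Bmpr1b, beside 2.01% and 1.73% of all genes in those fits. The median log2 fold change over the 9 members was 0.16, beside -0.02 over all genes tested. The 3 Gata4 KD libraries did not overlap the 3 controls for 2 members, Bmpr1b and Id2, and 13.8% of all genes tested were separated in this way. With 3 libraries against 3, an exact two-sided permutation test of a single gene cannot go below p = 0.1.

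Tbx20 KD against control asks the same of TBX20. No member passed the threshold (adjusted p = 1 for each), where 0.00687% of 14547 genes did. Tbx20 itself did not pass in this quasi-likelihood test (log2 fold change -1.35, adjusted p = 0.748). The absence of calls therefore does not show that the members were unchanged. At an unadjusted p under 0.05 there were 2 members, Bmp4 and Id2, beside 2.69% of all genes, and neither passed under DESeq2 or edgeR's exact test. The median log2 fold change of the members was 0.06. Separate groups were seen for Bmp4 and Id2, 2 of 9 members, beside 6.74% of all genes.

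Gata4 KD against Tbx20 KD asks directly where the effects of the 2 knockdowns part, and here 1 of the 9 members, Bmpr1b, passed the threshold, beside 1.44% of 14477 genes in either direction and 0.815% in the direction of higher levels in Gata4 KD. The members at an unadjusted p under 0.05 were Bmp4, Gdf6, Bmpr1b and Grem1 (4 of 9, beside 16.7% of all genes). The median log2 fold change over all 9 members was 0.10, beside -0.01 over all genes tested. The groups did not overlap for Bmp4, Bmpr1a, Bmpr1b and Id2, 4 of 9 members, beside 23.0% of all genes. Without Gata4 KD replicate c the test called 3 members, Bmpr1b, Gdf6 and Grem1, beside 5.47% of all genes in that fit. Both knockdowns were compared with the same 3 control libraries, so their differences from control are not independent of each other.

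**Figure D2:**
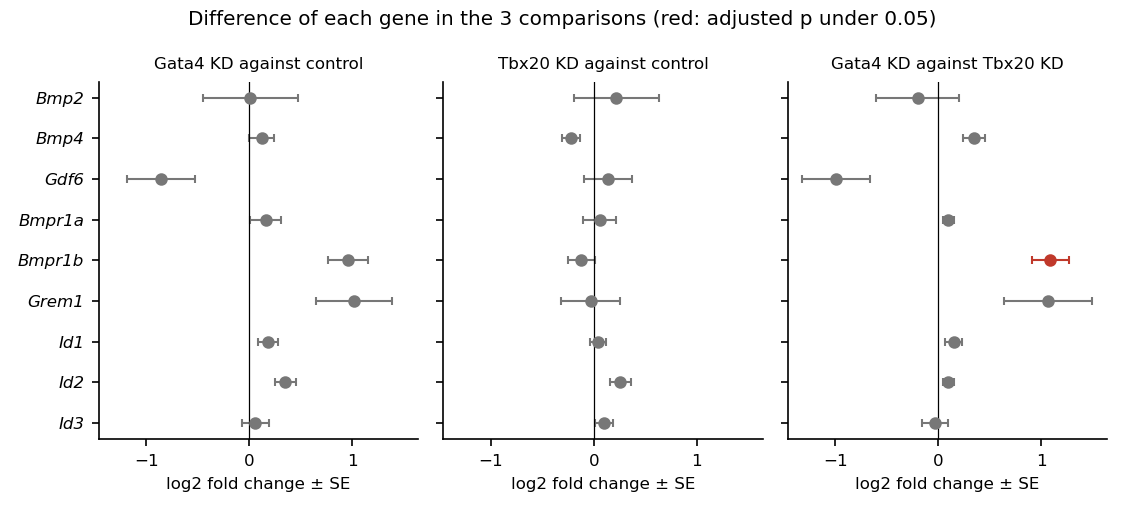
Log2 fold change (horizontal axes) of each of the 9 genes with its SE in the 3 comparisons, each fitted on its own 6 libraries. The only value past the threshold (red) is Bmpr1b in Gata4 KD against Tbx20 KD, and the widest bars among genes over 20 CPM belong to Gdf6 and Grem1.

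Among the ligands, Gdf6, whose product is a BMP-family factor best known from joint and eye development (ENSMUSG00000051279, chr4:9844372-9862345, plus strand, GRCm38), showed a wide spread in each group. Gdf6 was 167, 206 and 115 CPM in control replicates a, b and c, 73.5, 56.8 and 139 CPM in Gata4 KD, and 132, 208 and 193 CPM in Tbx20 KD. Gata4 KD replicates a and b lay below every other library, and replicate c lay above control replicate c and Tbx20 KD replicate a, so the groups overlapped. The log2 fold change of Gdf6 was -0.86 ± 0.33 (SE, adjusted p = 0.494) in Gata4 KD against control, 0.14 ± 0.23 (adjusted p = 1) in Tbx20 KD against control, and -0.99 ± 0.33 (adjusted p = 0.191) in Gata4 KD against Tbx20 KD. Without Gata4 KD replicate c the difference from control was -1.30 (adjusted p = 0.102), still short of the threshold, and that from Tbx20 KD was -1.46 and past it (adjusted p = 0.012).

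Bmp4 (ENSMUSG00000021835, chr14:46383520-46390669, minus strand), a ligand active in heart and vessel development, was lower than Gdf6 per kilobase and its libraries lay closer together. Bmp4 was 10.6, 10 and 10.1 CPM in control, 11.1, 9.69 and 12.6 CPM in Gata4 KD, and 8.47, 9.06 and 8.6 CPM in Tbx20 KD. All Tbx20 KD libraries lay below all others, and the Gata4 KD libraries spanned the controls. The log2 fold change of Bmp4 was -0.22 ± 0.09 in Tbx20 KD against control (adjusted p = 1), 0.12 ± 0.12 in Gata4 KD against control (adjusted p = 0.852) and 0.35 ± 0.11 in Gata4 KD against Tbx20 KD (adjusted p = 0.168). Bmp2 (ENSMUSG00000027358, chr2:133552159-133562885, plus strand), a close relative of Bmp4, was at the edge of detection, with 0.327 to 1.09 CPM over the 9 libraries, overlapping groups and standard errors of 0.4 to 0.46 on the log2 scale. No difference in Bmp2 was detected.

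Of the 18 other listed ligands, 17 were in the table and 6 or 7 were tested, and none passed the threshold in any comparison. The non-members with the smallest p were Gdf11, a relative of myostatin, and Gdf15, a stress-induced cytokine. Gdf11 was 31.7, 36.2 and 30.9 CPM in Gata4 KD and 26.8, 24.9 and 25.3 CPM in Tbx20 KD, without overlap, and its log2 fold change of 0.36 ± 0.08 in the direct comparison had an adjusted p of 0.0726. Gdf15 differed by 0.43 ± 0.12 in the same comparison (adjusted p = 0.15). Without Gata4 KD replicate c both passed, with an adjusted p of 0.0317 for Gdf11 and 0.038 for Gdf15. Of 13 alternative settings of the direct comparison, Gdf11 was called in 3 and Gdf15 in 1.

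Bmpr1b (ENSMUSG00000052430, chr3:141837136-142169425, minus strand), a type I receptor with a narrower tissue range than Bmpr1a, was the only member past the threshold between the knockdowns. Bmpr1b was 4.76, 5.51 and 5.51 CPM in control, 10.2, 12.6 and 7.75 CPM in Gata4 KD, and 5.23, 4.73 and 4.41 CPM in Tbx20 KD. Every Gata4 KD library lay above all 6 others, with replicate c the nearest to them, and Tbx20 KD overlapped control. Bmpr1b rose in Gata4 KD relative to Tbx20 KD by 1.09 ± 0.18 on the log2 scale (2.13-fold, adjusted p = 0.0402). Against control the difference was 0.96 ± 0.19 (1.94-fold) with an adjusted p of 0.1, and Tbx20 KD differed from control by -0.12 ± 0.13 (adjusted p = 1). When single libraries were left out, the call against Tbx20 KD held for the omission of Gata4 KD replicate c (log2 fold change 1.25, adjusted p = 0.0039) and failed for that of replicate a (adjusted p = 0.158) or b (0.0832) of Gata4 KD and of replicate a (0.0796), b (0.189) or c (0.19) of Tbx20 KD. It also failed with limma-voom (adjusted p = 0.0564), and against control the difference passed under DESeq2 (adjusted p = 0.000527) and without Gata4 KD replicate c (0.0345).

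Bmpr1a (ENSMUSG00000021796, chr14:34410734-34503341, minus strand) encodes the type I receptor found on most cells. Bmpr1a was 137, 181 and 113 CPM in control, 159, 155 and 165 CPM in Gata4 KD, and 142, 152 and 152 CPM in Tbx20 KD. The controls spread on both sides of the knockdown libraries, and Gata4 KD lay just above Tbx20 KD without overlap. The log2 fold change of Bmpr1a was 0.16 ± 0.15 (adjusted p = 0.846), 0.06 ± 0.16 (adjusted p = 1) and 0.10 ± 0.05 (adjusted p = 0.354) in the 3 comparisons in the order above.

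Among all 13 receptor and co-receptor genes, 12 were tested, and Bmpr1b was the only one past the threshold, in the direct comparison. Bmpr2, the type II receptor for BMPs, was 87.6 to 95.4 CPM in Gata4 KD and 72.7 to 83.2 CPM in Tbx20 KD, a log2 difference of 0.25 ± 0.07 (adjusted p = 0.114). Rgma, a membrane-anchored co-receptor, was 13.6, 14.2 and 12.7 CPM in control, 11, 8.45 and 17 CPM in Gata4 KD, and 16, 21.5 and 20.6 CPM in Tbx20 KD. All Tbx20 KD libraries lay above the controls (log2 fold change 0.53 ± 0.13, adjusted p = 1), and the Gata4 KD libraries spanned them (-0.15 ± 0.23, adjusted p = 0.902). The log2 difference of Rgma between the knockdowns, -0.67 ± 0.24 (adjusted p = 0.224), passed without Gata4 KD replicate c (adjusted p = 0.0198). Eng, a co-receptor for BMP9 and TGF-beta ligands, had the highest level per kilobase of this list in control, 143 ± 8.74 CPM per kilobase.

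Grem1 (ENSMUSG00000074934, chr2:113746164-113758646, minus strand), which encodes the secreted BMP antagonist Gremlin 1, also showed a wide spread in each group. Grem1 was 41.9, 25.1 and 40.9 CPM in control, 79.1, 107 and 33.7 CPM in Gata4 KD, and 48.5, 34.8 and 21.2 CPM in Tbx20 KD. Gata4 KD replicates a and b lay above every other library, and replicate c lay within the range of both other groups. The log2 fold change of Grem1 was 1.02 ± 0.37 (2.03-fold, adjusted p = 0.468) in Gata4 KD against control, -0.03 ± 0.29 (adjusted p = 1) in Tbx20 KD against control, and 1.07 ± 0.43 (adjusted p = 0.274) between the knockdowns. Without Gata4 KD replicate c these were 1.40 (adjusted p = 0.0632) against control and 1.41 against Tbx20 KD, the latter past the threshold (adjusted p = 0.0375).

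Gdf6 and Grem1 were ordered in opposite ways within Gata4 KD. Replicate b had the most Grem1 and the least Gdf6 of the 9 libraries, replicate a came next in both, and replicate c had the most Gdf6 and the least Grem1 of its group. In Tbx20 KD, replicate a had the most Grem1 and the least Gdf6. The least Grem1 (replicate c, 21.2 CPM) and the most Gdf6 (replicate b, 208 CPM) of that group fell in different libraries. In control, replicate b had the least Grem1 and the most Gdf6, while the most Grem1 (replicate a, 41.9 CPM) and the least Gdf6 (replicate c) fell in different libraries. Fibroblast markers differed between the same libraries. Within Gata4 KD every one of the listed fibroblast markers but Thy1 was lowest in replicate b and highest in replicate c, the order of Gdf6. Set against the other groups, the markers did not all go in one direction. Col3a1 was 1850, 1610 and 3210 CPM in Gata4 KD replicates a, b and c and 2690 to 3830 CPM in the other libraries, Pdgfra was 563, 512 and 668 CPM against 384 to 524 CPM, and Thy1 was 101, 82.6 and 90.8 CPM against 74.9 to 111 CPM. The summed level of all 8 markers was 8850, 7670 and 11900 CPM in Gata4 KD replicates a, b and c, and its part in the result was not tested.

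**Figure D3:**
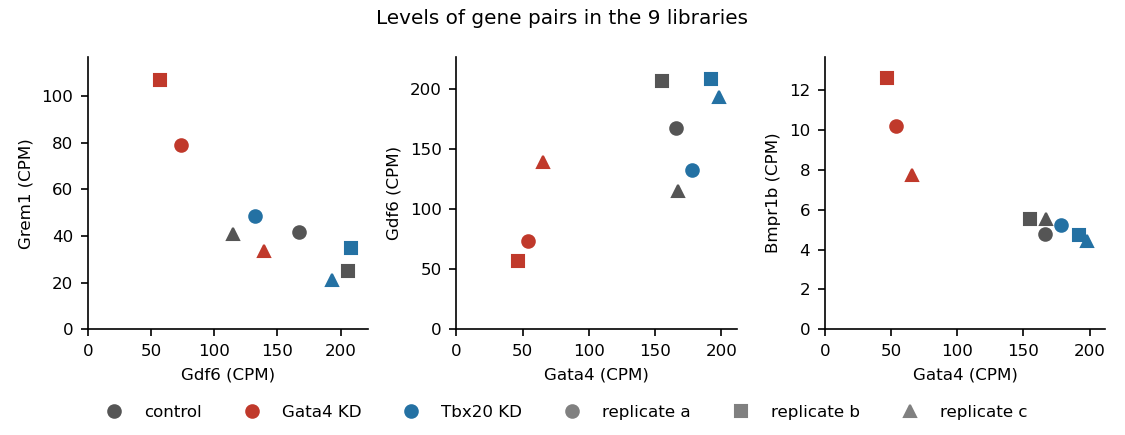
Level in CPM of Grem1 against Gdf6, of Gdf6 against Gata4, and of Bmpr1b against Gata4 (both axes from 0) in the 9 libraries, with colour for the group and marker shape for the replicate. Gata4 KD replicates a and b stand apart with high Grem1 (79.1 and 107 CPM) and low Gdf6 (73.5 and 56.8 CPM), replicate c lies among the other groups in the first panel, and all 3 lie above the other libraries for Bmpr1b.

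Of 17 extracellular antagonists and modulators, 12 were tested, and Crim1 alone passed, in the direct comparison. Crim1, a membrane-bound protein with cysteine-rich repeats that binds BMPs, was 247, 284 and 262 CPM in control, 393, 398 and 343 CPM in Gata4 KD, and 260, 213 and 227 CPM in Tbx20 KD. All Gata4 KD libraries lay above the rest. Crim1 rose in Gata4 KD relative to Tbx20 KD by 0.70 ± 0.09 on the log2 scale (adjusted p = 0.0192), and against control the difference was 0.52 ± 0.09 (adjusted p = 0.0812). Without control replicate b the latter passed (adjusted p = 0.0362), and the call of Crim1 against Tbx20 KD held in 2 of 6 fits that each left out a library (0.00398 to 0.12). Bmper, a secreted BMP-binding protein, differed by 0.26 ± 0.07 between the knockdowns (adjusted p = 0.11, and 0.0266 without Gata4 KD replicate c). It was called in 3 of 13 alternative settings of that comparison. Fstl1, a follistatin-like secreted protein, had the highest level per kilobase of this list, 365 ± 40.1 CPM per kilobase in control, and its groups overlapped.

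All 10 SMADs and intracellular regulators were tested, and 2 passed in the direct comparison, in opposite directions. Smad9, one of the 3 receptor-activated SMADs of the BMP branch, was 8.95, 10.8 and 9.37 CPM in control, 15, 15.3 and 13.2 CPM in Gata4 KD, and 10.5, 9.69 and 8.68 CPM in Tbx20 KD. It rose in Gata4 KD relative to Tbx20 KD by 0.59 ± 0.10 (log2, adjusted p = 0.0407) and differed from control by 0.58 ± 0.12 (adjusted p = 0.119). The call of Smad9 between the knockdowns held in 1 of 6 fits that each left out a library (adjusted p = 0.0156 to 0.189). Against control, among the leave-one-out fits, Smad9 passed only without control replicate b (0.0436, and 0.0908 to 0.532 without each of the others). It also passed against control with DESeq2, with edgeR's exact test and with all 9 libraries in one fit. Bambi, a receptor-like protein without a kinase that damps signalling, was 15, 12.7 and 16.7 CPM in control, 10.4, 9.64 and 11.2 CPM in Gata4 KD, and 15.5, 15.5 and 15.1 CPM in Tbx20 KD. For both genes the Gata4 KD libraries were separate from all 6 others. Bambi fell by 0.56 on the log2 scale in Gata4 KD relative to Tbx20 KD (SE 0.08, adjusted p = 0.0225), and against control the difference was -0.51 ± 0.13 (adjusted p = 0.212). The call of Bambi held in 1 of the 6 leave-one-out fits, that without Gata4 KD replicate c (adjusted p = 0.00915 to 0.133 over the 6). Smad1 and Smad5, the other receptor-activated SMADs of this branch, were not called in any comparison, and Smad1 ran from 38.9 to 44.9 CPM over the 9 libraries. Ski, a nuclear co-repressor of SMADs, had the highest level per kilobase of the list in control, 28.9 ± 2.06 CPM per kilobase.

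The Id genes are the usual readout of BMP signalling, and the differences of the 3 members among them did not pass the threshold in any comparison. Id1 (ENSMUSG00000042745, chr2:152736251-152737410, plus strand) was 38.4, 37.8 and 43.4 CPM in control, 48.9, 40.7 and 46 CPM in Gata4 KD, and 42.9, 39.8 and 39.6 CPM in Tbx20 KD, with overlap between all groups. Its log2 fold change was 0.18 ± 0.10 in Gata4 KD against control (adjusted p = 0.702), 0.04 ± 0.08 in Tbx20 KD against control (adjusted p = 1) and 0.15 ± 0.08 between the knockdowns (adjusted p = 0.384). Id3 (ENSMUSG00000007872, chr4:136143497-136145755, plus strand) was 206, 183 and 181 CPM in control, 201, 164 and 232 CPM in Gata4 KD, and 181, 213 and 213 CPM in Tbx20 KD. These ranges lay over each other, with log2 fold changes of 0.06 ± 0.13, 0.10 ± 0.09 and -0.03 ± 0.13 in the same order (adjusted p = 0.93, 1 and 0.945).

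Id2 (ENSMUSG00000020644, chr12:25093799-25097140, minus strand) was the Id member whose controls stood apart. Id2 was 64.3, 83.7 and 76.3 CPM in control, 99.3, 95.4 and 92 CPM in Gata4 KD, and 91.2, 87.4 and 88.1 CPM in Tbx20 KD. All 6 knockdown libraries lay above the 3 controls, and Gata4 KD lay above Tbx20 KD. The log2 fold change of Id2 was 0.35 ± 0.10 in Gata4 KD against control (adjusted p = 0.316), 0.26 ± 0.10 in Tbx20 KD against control (adjusted p = 1) and 0.10 ± 0.05 between the knockdowns (adjusted p = 0.328), and none of these passed.

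Among 11 BMP target genes, 9 or 10 were tested, and Id4, the fourth Id gene and no member of the set, was the only one past the threshold, in the direct comparison. Id4 was 1.99, 3.78 and 1.93 CPM in control, 6.11, 5.95 and 6.09 CPM in Gata4 KD, and 2.39, 2.76 and 2.48 CPM in Tbx20 KD. The Gata4 KD libraries lay close together and above all others. Id4 rose in Gata4 KD relative to Tbx20 KD by 1.25 ± 0.11 on the log2 scale (2.38-fold, adjusted p = 0.00428), and against control the difference was 1.23 ± 0.26 (2.35-fold, adjusted p = 0.122), which passed without control replicate b (adjusted p = 0.00779). Its call in the direct comparison was kept without each library in turn. Runx2, a transcription factor of bone and calcifying tissue, was 33.3 to 36.5 CPM in Gata4 KD and 24.5 to 31.1 CPM in control (log2 difference 0.35 ± 0.11, adjusted p = 0.362, and 0.0485 without control replicate b).

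Over the 5 lists of ligands, receptors, antagonists, SMADs and targets, 71 of 72 genes were in the table. Pathway genes here means all genes of these lists, which were chosen with earlier results of these data known. The ligand list follows family names, Gdf11 and Gdf15 included, and is not limited to ligands that act through SMAD1, SMAD5 and SMAD9. No gene of 53 tested passed in Gata4 KD or in Tbx20 KD against control. In the direct comparison 5 of 52 passed, 4 higher in Gata4 KD (Bmpr1b, Crim1, Smad9 and Id4) and 1 lower (Bambi), beside 0.815% of all genes tested that were higher and 0.622% that were lower. The median log2 fold change over all 52 was 0.06, beside -0.01 over all genes tested. In Gata4 KD against control the same 5 genes were called by DESeq2, beside 2.01% of all genes in that fit. In edgeR's quasi-likelihood test of that comparison 13 of 53 had an unadjusted p under 0.05, beside 8.54% of all genes tested. In Tbx20 KD against control 4 of 53 had an unadjusted p under 0.05, beside 2.69% of all genes tested. DESeq2 called no pathway gene there, beside 0.0778% of all genes. Of the leave-one-out fits of the direct comparison, the one lacking Gata4 KD replicate c called 13 pathway genes (the same 5 with Gdf6, Grem1, Gdf11, Gdf15, Rgma, Bmper, Smad6 and Smurf2), beside 5.47% of all genes tested in it. The fit lacking Tbx20 KD replicate a called 2 (Crim1 and Id4), beside 0.709%, and each of the other 4 called 1 (Id4), beside 0.149% to 0.374%. Gdf6, Grem1, Gdf15 and Rgma were each called in 1 of 13 alternative settings of this comparison, the one without Gata4 KD replicate c.

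**Figure D4:**
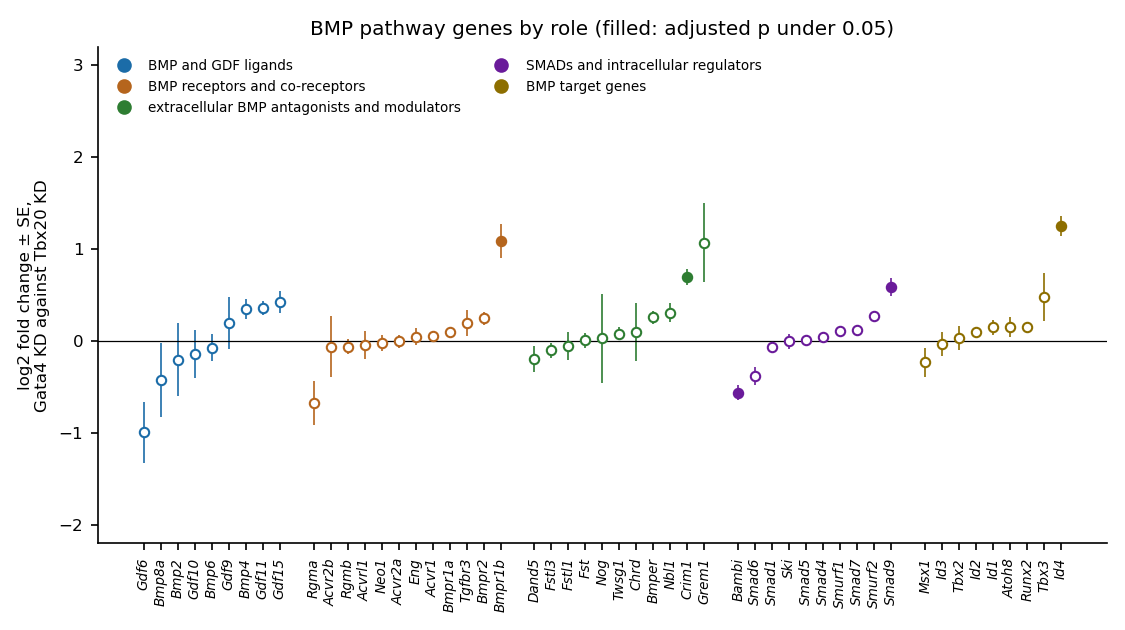
Log2 fold change with its SE (vertical axis) of the BMP pathway genes reported here in Gata4 KD against Tbx20 KD, coloured and grouped by role and ordered by value within each group. Filled points mark the 5 genes past the threshold, Bmpr1b, Crim1, Smad9 and Id4 above 0 and Bambi below it.

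Of the marker lists for other cell types, the summed levels of the endothelial and of the epicardial and mesothelial lists in Gata4 KD did not overlap those of the other groups, and the sums of the remaining lists overlapped control. The summed level of 6 endothelial markers was 14.3 to 22.0 CPM in control, 23.8 to 25.7 CPM in Gata4 KD and 18.6 to 20.1 CPM in Tbx20 KD, and Kdr, a VEGF receptor, was called in the direct comparison (log2 fold change 0.90, adjusted p = 0.0258) at 5.06 to 6.19 CPM in Gata4 KD and 2.68 to 3.22 CPM in Tbx20 KD. Of the 6 endothelial markers 4 had a log2 fold change above 0 in that comparison and 2 below it (Cdh5 -0.20 and Tie1 -0.58, neither called), and Tie1 was under 1 CPM in every library. The summed level of 6 epicardial and mesothelial markers was 25.5 to 49.2 CPM in control, 9.44 to 17.2 CPM in Gata4 KD and 27.1 to 44.0 CPM in Tbx20 KD, and Lrrn4 was called lower in Gata4 KD against control and against Tbx20 KD. Lrrn4 made up most of that sum in control (15.7 to 32.5 CPM). Without passing the threshold, Upk3b and Upk1b had log2 fold changes of -1.51 and -1.16 in Gata4 KD against control, and -1.30 and -0.41 against Tbx20 KD. Those of Wt1 and Krt19 were 0.13 and 0.35 against control, and -0.18 and 1.17 against Tbx20 KD, also without passing. Msln was under 1 CPM in every library. Blood markers summed to 35.6 to 42.3, 21.2 to 37.4 and 34.0 to 49.9 CPM in the same order, with Cd3e at 0 throughout. Smooth muscle and pericyte markers summed to 27.2 to 36.3, 20.5 to 40.7 and 30.1 to 39.8 CPM, and Schwann cell markers to 1.54 to 2.47, 1.41 to 1.84 and 1.31 to 1.77 CPM. The sort had been set against endothelial and blood cells, and the part of these cells in the values of Bmpr1b, Crim1, Smad9, Bambi and Id4 was not tested.

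Genes most like each member were sought among 10081 genes by the root mean square difference of standardised log2 CPM over the 9 libraries, where 0 is the same pattern. For Gdf6 genes with a close pattern were Mtss1 (0.102) and Grk5 (0.133). For Bmpr1b they were Thbd (0.192), Fosl2 (0.194) and Cd55 (0.197), and for Grem1 Ampd3 (0.292), Dclre1a (0.307) and E2f6 (0.322). Bmpr1a was nearest to Sec63 (0.114), Scamp1 (0.131) and Nptn (0.169). Among the targets, Id3 was nearest to Acvrl1 (0.208), which encodes the type I receptor ALK1, followed by Loxl1 (0.276) and Jmjd8 (0.277). Id1 was nearest to Zbed3 (0.41), Id2 to Prdm16 (0.385) and Bmp4 to Stard5 (0.43), all looser matches, and Bmp2 was too low to be compared. The patterns of these genes include the spread between libraries of one group as well as the groups.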

How the data were processed

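The deposited table holds RSEM expected counts per gene, which the authors made from single-end, stranded 75-base reads (KAPA mRNA HyperPrep, NextSeq 500) trimmed at quality 30 and aligned with Bowtie2 2.2.0 under RSEM 1.2.12. The study's methods name GRCm38 and the submitters' processing notes name mm9. The table has no coordinates, so gene and guide positions come from GENCODE M21 (GRCm38) and promoters from RefSeq (GRCm38.p6). The values were already whole numbers, and identifiers without a symbol held 0.262% of counts. Reads were split between genes by RSEM; of the members, Grem1 shared 0.74% of its 75-base windows with other genes and the rest shared none. A library was assigned to its group by the guide named in its label.

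Each comparison was fitted on its 6 libraries with edgeR 4.0.16 (filterByExpr, TMM, quasi-likelihood F test, two-sided) in R 4.3.3, with Benjamini-Hochberg adjustment over all genes tested, a threshold of 0.05, and SE taken as the log2 fold change divided by the square root of F. CPM used TMM-scaled library sizes. The scripts were tested on simulated data. Alternatives were DESeq2 1.42.0, limma-voom (limma 3.58.1), edgeR's exact test, library size alone, no filter, all 9 libraries in one fit, a replicate block and leaving out each library. Genes outside the 9 were named by rule: every listed pathway gene past the threshold, and in each role list the 2 non-members with the smallest p and the gene with the highest level per kilobase in control; for likeness, a mean of at least 5 CPM was required. Smad1, Smad5 and the marker genes were named after their values were seen. The members and lists were chosen with earlier results of these data known. Some genes that entered these tests are not reported here.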

Additional observations from a re-analysis of the deposited data

How the results depend on the processing

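In Gata4 KD against control the number of members called rose from 0 to 1 (Bmpr1b) with DESeq2, without the filter, with edgeR's exact test and with all 9 libraries in one fit, and was 0 to 1 when each library was left out. The number of pathway genes called there was 5 with DESeq2, 3 without the filter, 4 with the exact test, 4 in the fit of all libraries, and 0 to 4 when each library was left out. Calls over all genes were 2.01%, 0.54%, 1.73%, 1.0% and 0.041% to 1.29% in the same order, beside 0.38% in the fit reported above. In Tbx20 KD against control both counts were 0 throughout. In Gata4 KD against Tbx20 KD the member count of 1 became 0 with limma-voom and with a replicate block, and 0 to 3 when each library was left out. The pathway count of 5 became 10 with DESeq2 and with the exact test, 2 with the replicate block, and 1 to 13 when each library was left out. Over all genes the calls were 1.44% in the fit reported above, 5.56% with DESeq2 and 5.04% with the exact test. They were 1.35% with limma-voom, 0.698% with the replicate block and 0.149% to 5.47% when each library was left out. Whether the replicate letters pair the libraries is not stated in the labels. Deviations of same-lettered libraries from their group means correlated at 0.103, -0.046 and -0.17 (Gata4 KD and control, letters a, b and c), -0.023, 0.231 and 0.002 (Tbx20 KD and control) and 0.087, -0.153 and 0.255 (Gata4 KD and Tbx20 KD). Libraries of different letters were not compared in this way, so these values do not settle the pairing.

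Differences near 0 changed sign when single libraries were left out. In Gata4 KD against control the log2 fold changes ranged from -0.36 to 0.3 for Bmp2, -0.03 to 0.19 for Id3 and -0.45 to 0.06 for Rgma. In Tbx20 KD against control they ranged from -0.12 to 0.45 for Bmp2, -0.06 to 0.35 for Gdf6, -0.08 to 0.27 for Bmpr1a, -0.35 to 0.23 for Grem1, -0.21 to 0.03 for Gdf15, -0.02 to 0.16 for Bambi and -0.17 to 0.39 for Id4. Id4 there was also 0.01 with library size alone and 0.06 with limma-voom and with the replicate block. Between the knockdowns they ranged from -0.6 to 0.13 for Bmp2 and -0.16 to 0.1 for Id3. The cause of these changes was not tested. With 3 libraries a group, the calls rest on few libraries. Gata4 KD replicate c stood apart from replicates a and b for Gdf6 and Grem1, but not for Id4 (6.11, 5.95 and 6.09 CPM in a, b and c). Bmp2 stayed near 1 CPM or below in every library.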
